A study of Sus scrofa with 8 samples.

Results

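Chromatin accessibility in pig (Sus scrofa) muscle satellite cells, stem cells that lie beside muscle fibres and repair them, was compared between the CBP and WT groups at 0 h, the time labelled as cell proliferation. The comparison rests on 4 ATAC-seq libraries, 2 labelled CBP and 2 labelled WT, out of 8 in the series. The other 4 libraries carry the same labels, CBP and WT, at 60 h of differentiation. ATAC-seq uses a transposase that inserts sequencing adapters into open DNA, so that stretches of accessible chromatin appear as peaks of reads. The peaks of the 4 libraries on chromosomes 1 to 18 and X were joined into 164746 regions, with 1 bp of overlap enough to join 2 peaks. A region called in both CBP libraries and in neither WT library was counted as opened, and one called in both WT libraries and in neither CBP library as closed. There were 10770 such regions, of which 4517 were opened and 6253 were closed.

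The labels give one treatment text for every sample, which names SGC-CBP30, at 5 uM/ml, for 48 h during proliferation and 60 h during differentiation. They do not say which group received it, so the group names CBP and WT are used here only as names. All samples carry the cell line label C3H, although the labelled organism is pig and the coordinates fit the pig genome build. The labels do not say whether the 2 libraries of a group were made from different animals or cultures. A p-value therefore reflects only how far these libraries scatter, which may be technical.

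CBP, encoded by CREBBP, and its close relative EP300 are acetyltransferases that place acetyl groups on histones and on transcription factors, mostly at enhancers and promoters. SGC-CBP30 binds the bromodomain of both proteins, the domain that recognises acetylated lysine. In muscle, both act as partners of MYOD1 and of MEF2 factors, which switch on MYOG and then the genes of the contractile apparatus as myoblasts leave the cell cycle.

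The CBP lists held 135528 and 121757 peaks, against 127394 and 134181 in the WT lists. They covered 99.6 and 83.6 Mb in CBP, against 89.7 and 95.6 Mb in WT, with median peak widths of 623 and 573 bp against 604 and 592 bp. Read totals are not in the deposited lists. The most frequent local background in a list, used as a measure of depth relative to the shallowest of the 4, was 1.39 and 1 in CBP and 1.18 and 1.46 in WT. The groups overlapped in all of these measures. A region within 1 kb of a gene end was called in all 4 libraries at 11 of 12 markers of satellite cells and myoblasts, at 4 of 7 of fibroblasts and at 4 of 7 of endothelial cells. For immune cells and adipocytes this held for 2 of 7 and 2 of 6 markers, and for neural and Schwann cells for 2 of 6. An accessible gene end does not show that a gene is expressed, so these counts do not measure the makeup of the cultures.

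Most accessible regions were common to both groups, and the regions that separated them were few and weak. All 4 libraries called 90837 regions, 55.1% of the total. The opened regions made up 2.74% and the closed regions 3.8% of all merged regions. With 2 libraries a group, the calls can also be paired in 2 other ways, each with 1 CBP and 1 WT library on a side. One pairing gave 4374 regions called only in CBP replicate 1 and WT replicate 2, and 1031 called only in CBP replicate 2 and WT replicate 1. The other gave 2787 regions called only in both replicates 1 and 1513 called only in both replicates 2. Both the opened and the closed count exceeded all 4 of these counts, the opened one by the smaller margin. CBP replicate 1 and WT replicate 2, the pair behind the count of 4374, were also the 2 deepest libraries. An exact permutation test of 2 libraries against 2 cannot go below p = 0.333, so these counts are given without a test.

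**Figure D1:**
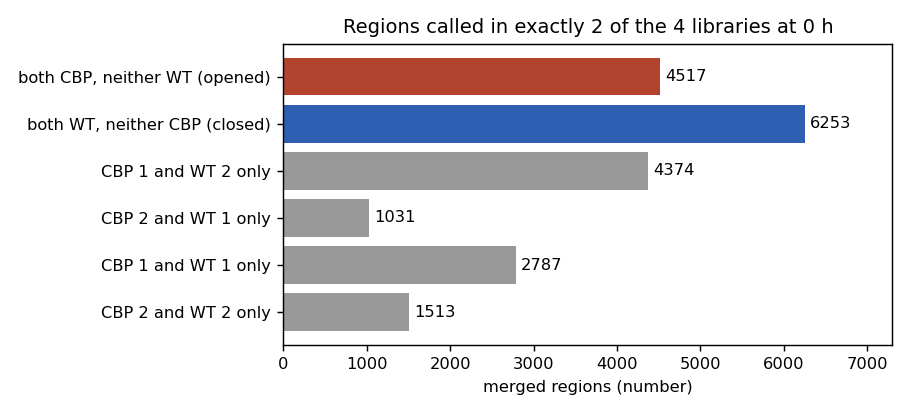
Number of merged regions called in exactly 2 of the 4 libraries at 0 h, by which 2. Opened regions (4517) and closed regions (6253) are in colour, and the 4 grey bars, each with 1 CBP and 1 WT library, run between 1031 and 4374.

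The share of regions in common was higher between libraries of one label than across labels, whereas the number in common was not. The Jaccard index, the share of the regions of 2 libraries that both called, was 0.734 between the CBP libraries and 0.752 between the WT libraries, and between 0.702 and 0.714 across labels. In number, 103610 regions were common to the CBP libraries and 106792 to the WT libraries, and between 97189 and 107848 across labels. Regions called by 1 library alone numbered 12694 and 5450 for CBP and 7149 and 10183 for WT. Such single calls therefore outnumbered the opened and closed regions together.

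Opened and closed regions were narrower and scored lower than shared ones. The −log10 q-value of each peak is the authors' own, and for each region the lower of its 2 libraries was taken. The median was 4.48 over opened and 4.81 over closed regions, against 14.2 in the CBP and 15.4 in the WT libraries at the regions that all 4 called. A value of at least 5 was reached by 1699 opened regions (37.6%) and 2865 closed regions (45.8%). Median widths were 434 bp for opened and 445 bp for closed regions, against 1000 bp for shared ones. Regions at most 300 bp wide were 19.1% of the opened, 17.8% of the closed and 0.676% of the shared set. A neighbouring region lay within 1 kb of 29.9% of opened and 31.0% of closed regions, against 24.5% of shared regions.

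Few opened or closed regions lay at gene ends, where promoters are found. The gene table used gives no strand, so either end of a gene counts. Within 1 kb of a gene end lay 189 opened regions (4.18%, Wilson 95% interval 3.64 to 4.81) and 237 closed regions (3.79%, 3.34 to 4.29), against 16.5% of shared regions (16.3 to 16.7). Closed regions lay inside genes more often than opened ones, at 54.1% (52.9 to 55.4) and 45.5% (44.1 to 47.0), while 44.4% of shared regions did. These intervals cover counting error only. By chromosome, the opened share ran between 1.95% on X and 3.35% on 17.

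The strongest closed and opened regions were ranked by the lower −log10 q-value of the 2 libraries that called them. Among closed regions, one inside MCUB, which encodes a subunit of the mitochondrial calcium channel (chromosome 8, 112594169 to 112595242), had no call in CBP and summit pileups of 70 and 58 reads in WT. A summit pileup is the number of reads stacked at the highest point of a peak. One inside AKT2, a kinase of the insulin pathway (chromosome 6, 48612217 to 48612908), had no call in CBP and 52 and 56 reads in WT. A region inside the acetyltransferase gene NCOA3 (chromosome 17, 49613188 to 49613997) also had no call in CBP, and 37 and 41 reads in WT. The remaining 7 of the top 10 were nearest to ZNF34, FRYL, ANXA3, RPN2, RAD54L2, SEMA6A and MKL2.

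Among opened regions, the highest was inside CLSTN2, a calsyntenin (chromosome 13, 80863130 to 80864170), with 34 and 32 reads in CBP and no call in WT. A region outside genes and nearest to CDH6, a cadherin (chromosome 16, 17493397 to 17494132), had 32 and 31 reads in CBP. One inside ITGB5, an integrin subunit (chromosome 13, 135469403 to 135469663), had 70 and 62 reads in CBP. None of these 3 was called in a WT library. The other 7 of the top 10 were nearest to VRK2, EIF3H, ITPRIP, ALCAM, ROBO2, GRIK1 and ZNF32. At gene ends the strongest opened regions were at CACYBP, STARD10 and MPP7, and the strongest closed ones at LIN7C, USP8 and GOLPH3L.

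Regions were linked to the nearest protein-coding gene end within 50 kb, which tied 65.3% of them to 17356 genes. Of the linked regions, 2.4% were opened and 3.61% closed. More opened than closed regions were linked to 1766 genes (10.2%), and more closed than opened to 2751 (15.9%). Among genes with a full symbol, the largest closed numbers were at DYNC2H1, a motor of cilia, and at ATF6, a sensor of unfolded proteins in the endoplasmic reticulum, with 5 closed and 0 opened regions each, of 13 and 19 linked. The 5 closed regions of ATF6 had no call in CBP and pileups between 21 and 38 reads in WT. PARP8 had 5 closed and 1 opened. RAD54L2, FNTB, AKT2, MAP4, GULP1 and TLN2, the last encoding a talin that joins integrins to actin, had 4 closed and 0 opened each. The largest opened numbers were smaller, with 4 opened and 0 closed at MEP1B, SPAG17 and REEP1. An excess of at least 3 opened regions was found at 33 genes. Of those with a full symbol, 3 opened and 0 closed, MSR1, PADI6, CHL1, FAM83B, FTO, FAM196B and ABL2 had the fewest linked regions and are named for that alone. At −log10 q of at least 5, PADI6 turned to a net of −1, that is, more closed than opened, and the excess at 15 of the other 19 named genes moved without turning.

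The 60 h libraries took no part in choosing these regions, and there the labels separated them in the same direction. Of the opened regions, 22.3% and 20.7% were called in the CBP libraries at 60 h, against 7.70% and 7.79% in the WT libraries. Of the closed regions, 14.9% and 15.8% were called in CBP at 60 h, against 27.3% and 22.6% in WT. The groups did not overlap in either set. For the regions shared by all 4 libraries at 0 h, the 60 h shares were 72.4% and 72.4% in CBP and 74.9% and 71.8% in WT, and the groups overlapped. Calls at 60 h in both CBP and neither WT library were made at 368 opened regions, and the reverse at 33. Among the closed regions, 104 were called in both CBP and neither WT library at 60 h, and 414 in both WT and neither CBP library. As deposited, the CBP minus WT difference at closed regions was −9.64 points. When all 8 lists were cut to their 82696 peaks of lowest p, the opened and closed regions were called anew. At that other set of closed regions the difference was −22.1 points. No 60 h library called 63.9% of the opened and 58.5% of the closed regions.

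**Figure D2:**
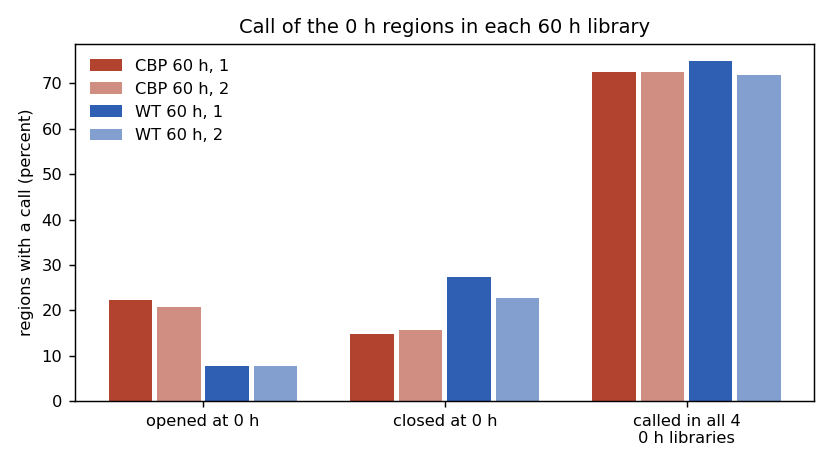
Percent of regions opened at 0 h, closed at 0 h, or called in all 4 libraries at 0 h that had a peak in each 60 h library (1 bar per library, CBP in red and WT in blue). Opened regions stood at 22.3% and 20.7% in CBP and near 7.7% in WT, and closed regions at 14.9% and 15.8% in CBP and 27.3% and 22.6% in WT.

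Presence or absence of a call leaves out changes at regions that all 4 libraries called, so the height of the peaks was compared there. The summit pileup of each peak, in whole reads, was solved for from the fold and −log10 p-value that the authors deposited. The log2 of pileup plus 1, scaled so that the libraries' median log ratios were equal, was tested with limma over all 90837 regions at a Benjamini-Hochberg adjusted p of 0.05. The scaling divided pileups by 1.29 and 1 in CBP and by 1.13 and 1.28 in WT. Replicates scattered by less than counting noise would give, so the limma p-values may be too small and the calls too many. A region that lost its call in any library was not tested, so the largest losses and gains fall outside this comparison.

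More regions were lower than higher in CBP. Pileups were higher in CBP at 2041 regions (2.25%) and lower at 4306 (4.74%), with median log2 differences, CBP minus WT, of 0.64 and −0.65. A change of at least 2 times was reached by 61 of the higher and 319 of the lower regions. The lower regions lay at gene ends in 5.69% of cases and the higher ones in 10.2%, against 17.2% of regions that were not called. The excess of lower regions depended on the scaling: when libraries were scaled by their background level, 2069 regions were higher and 1829 lower, with 53.1% of calls higher instead of 32.2%. Under that scaling the median difference of all regions was 0.081, against 0.0054 in the main scaling. Quantile scaling gave 962 higher and 2401 lower regions. When the authors' fold, which divides by the local background, replaced the pileup, 0 regions were called by limma, with 11502 at an unadjusted p under 0.05, against 17763 with pileups. Leaving out 1 library left 1033 higher and 3212 lower regions without CBP replicate 1, 796 and 2536 without CBP replicate 2, 645 and 1281 without WT replicate 1, and 1056 and 2028 without WT replicate 2.

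**Figure D3:**
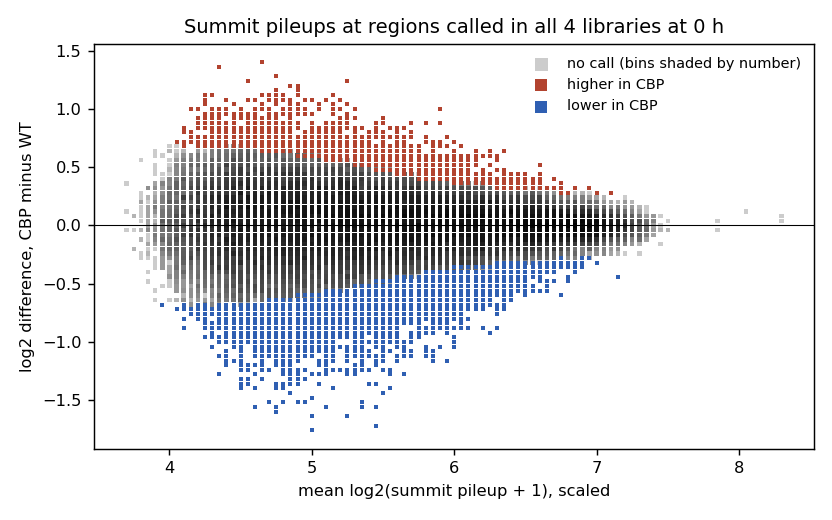
Difference in log2 summit pileup, CBP minus WT (vertical axis), against the mean log2 pileup plus 1 (horizontal axis), at the 90837 regions called in all 4 libraries, drawn in small bins. The 2041 higher regions are red, the 4306 lower ones blue and the uncalled ones grey.

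The 10 largest falls were all away from gene ends. A region inside RERG, a RAS-like protein that slows growth (chromosome 5, 57415702 to 57416564), had pileups of 15 and 17 reads in CBP, against 64 and 56 in WT. The groups lay far apart, with a log2 difference of −1.76 ± 0.21 (SE, n = 2 each; limma adjusted p = 1.03e-13). A region 9284 bp from ATP1B3, a subunit of the sodium pump (chromosome 13, 82736336 to 82737716), had 35 and 14 reads in CBP and 78 and 83 in WT, a log2 difference of −1.73. It was lower in CBP at 60 h too, where pileups were 12 and 12 in CBP and 45 and 34 in WT. The other 8 of the top 10, with log2 differences between −1.64 and −1.55, lay nearest to EIF4G3, WDR26, GADD45G, FRMPD1, CCDC171, SLC44A1, EDIL3 and KCNMA1.

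The largest rises included a region 18466 bp from CXCR4, a chemokine receptor used as a marker of satellite cells (chromosome 15, 15643975 to 15645186). It had 43 and 38 reads in CBP and 17 and 17 in WT, a log2 difference of 1.29 ± 0.22 (SE, n = 2 each; limma adjusted p = 2.01e-06). At 60 h it was called only in the CBP libraries, with 19 and 20 reads. A region inside FAT3, an atypical cadherin, had 36 and 27 reads in CBP and 11 and 14 in WT. Others in the top 10 lay near MBD5, the transcription factor SP3, LHFPL3, IFNE, WNT8B, the splicing regulator MBNL1, IMPAD1 and CHST1.

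Pileup differences at 0 h had the same sign at 60 h for most regions called in all 8 libraries, which compares separate libraries. Of 1012 regions higher in CBP at 0 h, 83.7% were also higher at 60 h, and of 2475 lower ones 77.4% were also lower. Among regions not called at 0 h, 51.8% were higher at 60 h. The median 60 h differences were 0.36 for the higher and −0.31 for the lower regions.

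The genes of the sarcomere and of contraction had the largest share of lower regions among the 22 gene lists examined. Of 139 tested regions linked to these genes, 33 were lower in CBP (23.7%) and 4 were higher. Over all genes, 4.5% of the 61857 linked regions tested were lower and 1.89% higher. The median log2 difference was −0.16 over the list's tested regions and 0.0048 over all linked ones. Lower regions were found at 19 of 32 genes with a tested region, and higher ones at 3. Over all 16384 genes with a tested region, 13.8% had a lower one and 6.46% a higher one. At gene ends, 15 of the list's 31 tested regions were lower and 0 were higher, while over all genes 1.63% of such regions were lower. Accessibility was measured on whole cultures, so fewer cells of a kind and less open chromatin per cell cannot be told apart.

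At the end of RYR1, the calcium release channel of the sarcoplasmic reticulum (chromosome 6, 47340204 to 47341551), pileups were 29 and 28 reads in CBP, against 75 and 71 in WT. The log2 difference was −1.24 ± 0.16 (SE, n = 2 each, limma adjusted p = 4.10e-11). At the end of TTN, which encodes titin, the spring of the sarcomere (chromosome 15, 84500466 to 84501782), there were 54 and 36 reads in CBP and 86 and 97 in WT, a log2 difference of −0.95 ± 0.13 (limma adjusted p = 4.28e-10). At 60 h the same TTN region had 23 and 31 reads in CBP and 59 and 43 in WT. The 0 h values of RYR1 and TTN are those that gave the calls. At 60 h, both CBP libraries were again below both WT libraries at the TTN region.

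A region inside MYOM1, a protein of the M band (chromosome 6, 103491516 to 103492644), had the largest fall of the list, with 26 and 12 reads in CBP and 55 and 55 in WT, a log2 difference of −1.50. A region inside CKM, muscle creatine kinase (chromosome 6, 51713884 to 51715836), had 32 and 20 reads in CBP and 46 and 61 in WT, a log2 difference of −0.95. At an end of TPM3, a tropomyosin, there were 46 and 27 reads in CBP and 63 and 70 in WT. These regions were named for a lower pileup in CBP, so the gap between their CBP and WT values follows from that choice.

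Several sarcomere genes had more than 1 lower region. MYL2, the regulatory light chain of slow myosin, had 4, with log2 differences between −0.73 and −0.50. DES, the muscle intermediate filament, and ACTC1, the actin of heart and embryonic muscle, had 3 each, and so did MYBPC1, a myosin binding protein. The region at the gene end of DES (chromosome 15, 121427467 to 121430069) had 65 and 56 reads in CBP and 79 and 109 in WT. Troponins of both fibre types were among them, with 2 lower regions each at TNNC2 and TNNT3 of fast muscle, 2 at TNNI1 and 1 at TNNT1 of slow muscle. NEB, CASQ1, CASQ2, MYL1, MYL4 and TPM1 had 1 each. The 4 higher regions lay at MYOM1, with 2, and at MYOM2 and TPM1, and none was at a gene end.

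**Figure D4:**
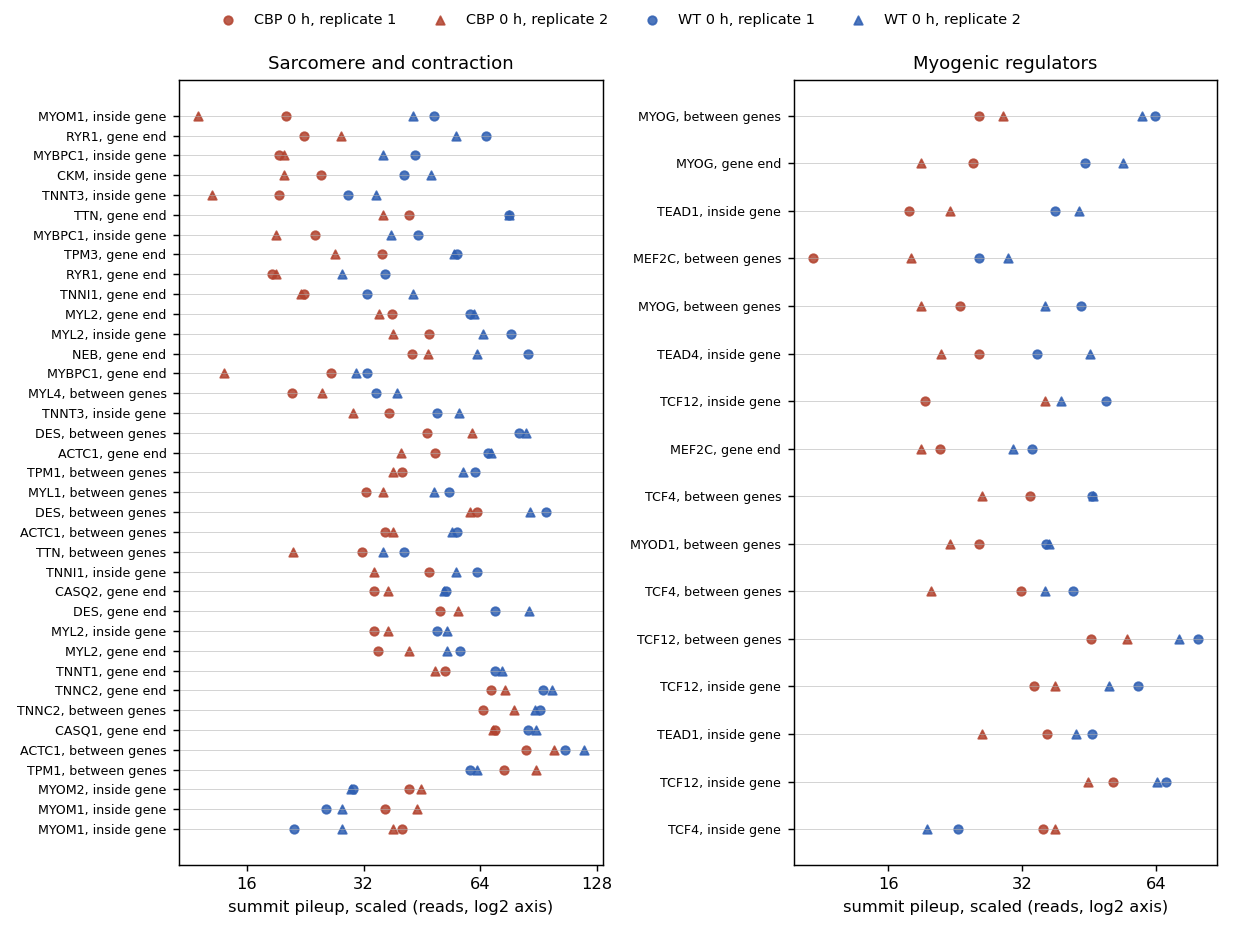
Summit pileup in each library, divided by the library's scaling factor (horizontal log2 axis), at the regions of sarcomere genes (left) and of myogenic regulators (right) whose difference passed the test, ordered from the lowest to the highest CBP minus WT difference. CBP libraries are red and WT libraries blue. Only called regions are drawn, of which 33 of 37 sarcomere regions and 15 of 16 regions of regulators were called lower. Over all linked regions, 2783 were called lower and 1171 higher.

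Sarcomere genes had both opened and closed calls. Of 257 linked regions, 11 were opened (4.28%, beside 2.4% over all genes) and 14 closed (5.45%, beside 3.61%). A closed region at the end of ACTA1, skeletal muscle actin (chromosome 14, 60412086 to 60413116), had no call in CBP and 29 and 47 reads in WT at 0 h. At 60 h it was called in all 4 libraries, with 34 and 34 reads in CBP and 35 and 33 in WT. Of the 33 lower regions, 26 were called in all 8 libraries, and 23 of those were also lower in CBP at 60 h.

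The local background of these peaks was lower in CBP as well. Whether a peak's own reads enter this value is not given in the sources used here, so it need not describe the surroundings alone. The local background that the peak caller set against each summit was 7.74 and 5.80 reads in CBP and 14.8 and 16.7 in WT at the TTN gene end, and 6.90 and 5.14 in CBP and 11.8 and 12.6 in WT at that of RYR1. After the same scaling, the local background was lower in CBP at all 33 lower sarcomere regions, with a median log2 difference of −0.44. It was lower at 2756 of the 2783 lower regions linked to any gene, with a median of −0.29. These regions were picked for a lower pileup. Over all tested linked regions the background was lower in CBP at 38502 of 61857, with a median of −0.038. Over all tested sarcomere regions it was lower at 109 of 139, with a median of −0.17. The authors' fold divides by it, and was 6.29 and 5.44 in CBP and 5.50 and 5.52 in WT at the TTN gene end, where the groups overlapped. At RYR1 it was 3.80 and 4.72 in CBP and 5.93 and 5.30 in WT, where they did not.

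With that fold in place of the pileup, limma called 0 of the 139 sarcomere regions, and their median log2 difference was −0.017. With libraries scaled by background, 16 were lower, beside 1152 of 61857 over all genes. Without WT replicate 1 there were 16, beside 844 over all genes, and without WT replicate 2 there were 19, beside 1293.

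Regulators of myogenesis also had more lower than higher regions, which held over all genes as well. Of 126 tested regions, 15 were lower in CBP (11.9%, beside 4.5% over all genes) and 1 was higher (0.794%, beside 1.89%). The median log2 difference over the tested regions was −0.067. All 8 libraries called 9 of the 15 lower regions, and 6 of those were also lower in CBP at 60 h. Of 219 linked regions, 13 were closed (5.94%, beside 3.61% over all genes) and 5 opened (2.28%, beside 2.4%). More closed than opened regions were found at 10 of 18 genes, and the reverse at 2. Over all genes these shares were 15.9% and 10.2%, with a median of 5 linked regions a gene. The lower count was 8 when libraries were scaled by background (6.35%, beside 1.86% over all genes) and 9 after quantile scaling (7.14%, beside 2.51%). It was 0 with the authors' fold, for this list and over all genes. Without WT replicate 1 it was 6 (4.76%, beside 1.36%), without WT replicate 2 it was 7 (5.56%, beside 2.09%). Without CBP replicate 2 it was 8 (6.35%, beside 2.67%).

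MYOG, the factor that starts terminal differentiation, had 3 of its 4 tested regions lower and another region closed. At its gene end (chromosome 9, 113784796 to 113785790) there were 32 and 19 reads in CBP, against 50 and 69 in WT, a log2 difference of −1.14 ± 0.18 (SE, n = 2 each; limma adjusted p = 3.00e-07). The authors' fold there was 2.81 and 2.70 in CBP and 2.63 and 3.03 in WT, and the groups overlapped in it. The lower level in CBP at this gene end was not seen at 60 h. The CBP libraries then had 41 and 42 reads, while WT replicate 1 had no call and WT replicate 2 had 36 reads. A region 13187 bp away (chromosome 9, 113798499 to 113800140) had 33 and 29 reads in CBP and 72 and 76 in WT. The closed region (chromosome 9, 113801613 to 113802430) had no call in CBP and 45 and 56 reads in WT. At 60 h it was called in all 4 libraries, with 24 and 21 reads in CBP and 32 and 30 in WT.

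Some partners of MYOG and MYOD1 had lower regions and others had none, beside 4.5% of tested regions lower over all genes. TCF12, an E protein that pairs with both, had 4 lower regions of 14 tested, and 1 closed. TCF4, another E protein, had 2 lower and 1 higher of 11 tested, 2 closed and 1 opened. MEF2C had 2 lower regions of 20 tested, 1 closed and 1 opened. Lower regions numbered 0 of 4 tested each at TCF3, MEF2A and MEF2B, and 0 of 12 at MEF2D. MEF2A had 2 opened regions and MEF2D 1 closed. MYOD1 had 1 lower region of 5 tested, 10372 bp away, with 33 and 22 reads in CBP and 41 and 47 in WT. A closed region inside MYMK, which encodes the fusion protein myomaker, had no call in CBP and 46 and 47 reads in WT. PAX7, which marks satellite cells, had 36 linked regions, of which 0 were opened or closed, and 0 of 17 tested were called.

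Genes of the acetyltransferases themselves had more closed than opened and more lower than higher regions. Of 127 linked regions 9 were closed (7.09%, beside 3.61% over all genes) and 1 opened (0.787%, beside 2.4%). Of 66 tested, 6 were lower (9.09%, beside 4.5% over all genes) and 1 higher (1.52%, beside 1.89%). The lower share did not stay above that over all genes. It was 0% without WT replicate 1, beside 1.36% over all genes, and 1.52% (1 region) without WT replicate 2, beside 2.09%. The lower count was 3 without either CBP library, 2 with quantile or background scaling and 0 with the authors' fold. KAT7 and NCOA1 had 3 closed regions each, and EP300, KAT2B and NCOA3 had 1 each. NCOA3 had 2 lower regions, one at a gene end with 23 and 18 reads in CBP and 40 and 43 in WT. CREBBP had no opened or closed region of 17 linked and 0 of 10 tested regions were called, with a median log2 difference of 0.13 over the tested regions.

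Genes of the RUNX, TEAD and YAP axis, factors that act at enhancers of dividing and stretched cells, had 14 lower and 2 higher of 166 tested regions (8.43% and 1.20%, beside 4.5% and 1.89% over all genes). The lower count was 8 without WT replicate 1, 9 without WT replicate 2 or CBP replicate 2, 8 with background scaling and 0 with the authors' fold. TEAD1 and TEAD4, which are on the myogenic list too, contributed 3 of the lower ones. The largest fall was near AMOTL2, a regulator of YAP, with 31 and 29 reads in CBP and 72 and 66 in WT (log2 difference −1.09). WWTR1, which encodes a close relative of YAP, had 3 closed and 1 lower region. RUNX1 had 3 opened regions, against 1 lower.

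Fibroblast and matrix genes had 15 lower and 4 higher of 214 tested regions (7.01% and 1.87%, beside 4.5% and 1.89% over all genes), and 17 closed and 8 opened of 357 linked. The lower share did not stay above that over all genes: it was 0.467% (1 region) without WT replicate 1, beside 1.36% over all genes, and 1.87% (4 regions) without WT replicate 2, beside 2.09%. There were 8 lower regions without CBP replicate 2, 7 after quantile scaling, 4 with background scaling and 0 with the authors' fold. COL1A2 and COL6A3, collagen genes, had 3 and 2 lower regions. Satellite cell and Notch genes had 11 lower and 4 higher of 196 tested regions (5.61% and 2.04%, beside 4.5% and 1.89% over all genes). The lower count was 1 without WT replicate 1 (0.510%, beside 1.36% over all genes) and 2 without WT replicate 2 (1.02%, beside 2.09%). It was 4 without CBP replicate 2, 6 without CBP replicate 1 or after quantile scaling, 2 with background scaling and 0 with the authors' fold. SPRY1, an inhibitor of receptor tyrosine kinases, had 3 of the lower ones, and the CXCR4 region described above was among the higher.

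Other lists stood near or under the share over all genes. Lower regions numbered 6 of 120 for readers and erasers of acetyl-lysine, 5 of 111 for cell cycle genes, 6 of 169 for the insulin and IGF axis, 4 of 114 for CREB, ATF and CRTC factors and 7 of 243 for TGF-beta and BMP genes. For AP-1 and immediate early genes 3 of 148 were lower and 3 higher, and for NF-kB and inflammatory genes 3 of 127 were lower and 0 higher. Housekeeping genes had 1 lower of 49.

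Opened and closed calls at 3 further lists are read beside 2.4% opened and 3.61% closed over all linked regions. Adipogenic genes had 6 opened and 1 closed among 182 linked regions (3.30% and 0.549%), 2 of the opened ones at CEBPA and 1 at PPARG, both factors of fat cell differentiation. The closed one was linked to LEP. Of 103 tested regions of this list, 3 were higher and 2 lower (2.91% and 1.94%, beside 1.89% and 4.5% over all genes). Among the higher was a region 1256 bp from PPARG, with 84 and 82 reads in CBP and 61 and 69 in WT (log2 difference 0.43). The 2 lower regions were linked to LEP. NF-kB and inflammatory genes had 10 opened and 7 closed among 205 linked regions (4.88% and 3.41%), including single opened regions near CCL2, CXCL2 and IL6. Genes of the unfolded protein response had 9 closed and 1 opened of 138 (6.52% and 0.725%), 5 of the closed at ATF6 and 1 each at XBP1, ERN1, EDEM1 and DNAJC3. Of this list's 86 tested regions, 1 was lower and 1 higher (1.16% each, beside 4.5% lower and 1.89% higher over all genes). The lower one was near XBP1, with 27 and 17 reads in CBP and 46 and 60 in WT. The higher one was linked to EIF2AK3.

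**Figure D5:**
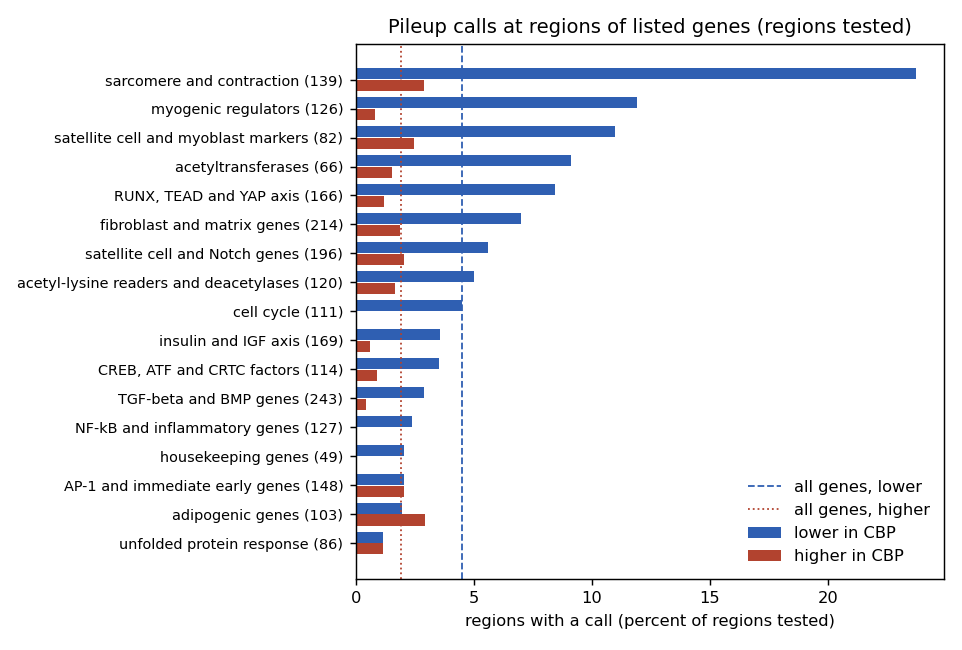
Percent of tested regions lower (blue) and higher (red) in CBP for the 17 lists with at least 40 tested regions, whose number is in brackets; lines mark all linked regions (4.5% lower, dashed; 1.89% higher, dotted). Sarcomere genes had 23.7% lower, and regulators of myogenesis 11.9%.

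Markers of cell types that the cultures could hold did not all move one way. Satellite cell and myoblast markers had 9 lower and 2 higher of 82 tested regions (11.0% and 2.44%). Fibroblast and fibro-adipogenic markers had 3 lower (11.5%) and 0 higher of 26. Over all genes the shares were 4.5% lower and 1.89% higher. Of the 9, 3 were the DES regions counted above among sarcomere genes and 1 was the MYOD1 region counted among regulators of myogenesis. Without WT replicate 1 the lower counts of these 2 lists were 3 and 1 (3.66% and 3.85%, beside 1.36% over all genes). Without WT replicate 2 they were 3 and 2 (3.66% and 7.69%, beside 2.09%). Without either CBP library they were 5 and 2, with background scaling 2 and 2, and with the authors' fold 0 and 0. Adipocyte markers had 2 lower and 2 higher of 32. Endothelial and immune markers had 0 called of 29 and 16. Neural and Schwann markers had 2 higher and 0 lower of 9, both at SNAP25. The part of cell makeup in the differences at muscle and matrix genes was not tested.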

How the data were processed

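ATAC-seq of 4 libraries, CBP and WT at 0 h, was compared, with the 4 libraries at 60 h used to look up the regions found. The submitters' processing notes name Trimmomatic, MACS2 2.1.0 and the build Sscrofa11.1. Which aligner was used, and whether duplicates or mitochondrial reads were dropped or positions shifted for the transposase, is not given in the sources used here; each choice could alter the height and edge of a peak. The authors deposited 1 peak list per library. Each deposited peak has a fold (a ratio to local background), a score, and p and q as −log10 values.

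Only peaks on chromosomes 1 to 18 and X entered, merged at 1 bp overlap; 0.908% to 0.926% of each 0 h list lay elsewhere and were left out. Fold and −log10 p were solved together for a summit pileup, which was whole (within 0.01 in −log10 p) for 100% of peaks, and the steps were tested on simulated data. Replicate pileups differed by less than Poisson counting noise in all 4 groups of the series (mean squared difference 0.549 to 0.599 of that expected). Libraries of different label differed by 0.920 to 1.07 of it. No replicate pair stood apart, and none was merged. The variance that limma used came from the scatter of the 0 h replicates. That scatter was narrower than counting alone would give, so the p-values may be too small and the calls too many. Pileups were compared with limma 3.58.1 (R 4.3.3, trended variance, pseudocount 1, Benjamini-Hochberg over all regions tested). Genes came from the RefSeq table for Sscrofa11.1 (19467 protein-coding genes), which holds no strand, so distances are to either gene end. Sequence was not used here, so a planned motif search was not run.

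The regions, the 22 gene lists (393 of 409 entries matched a gene) and the tests were chosen with earlier results of these data known. Named regions are the 10 strongest opened, closed, higher and lower ones, the strongest at gene ends, and those at genes on the lists; genes with a placeholder symbol were passed over. The naming of listed genes by their pileup calls and the choice of the 5 higher and 5 lower named regions at gene ends in the pileup comparison were made after their values were seen.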

Additional observations from a re-analysis of the deposited data

Results flagged for a closer look

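A small number of regions had opposite call patterns at the 2 times, which flagged them. Of the regions opened at 0 h, 368 were called in both CBP and neither WT library at 60 h, and 33 in both WT and neither CBP library. Of those closed at 0 h, 104 were called in both CBP and neither WT library at 60 h, and 414 in both WT and neither CBP library. The difference between the times was not tested. An example among the opened is a region nearest to AHR, a receptor for aromatic ligands (chromosome 9, 86332650 to 86333452), with 35 and 20 reads in CBP and no call in WT at 0 h, and no call in CBP and 12 and 15 reads in WT at 60 h. Among the closed, a region inside GNAQ, a G protein subunit (chromosome 1, 230714479 to 230715217), had no call in CBP and 23 and 24 reads in WT at 0 h, and 14 and 14 reads in CBP and no call in WT at 60 h.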

How the results depend on the processing

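Opened and closed counts stayed within 1.5 times of 4517 and 6253 with equal peak numbers, at −log10 q of at least 5, after thinning to 1 depth, with 50% cover and with merged summits (3688 to 6662 opened, 5325 to 8388 closed). Leaving out 1 library asks for fewer calls and gave 7660 to 17466 opened and 8564 to 16895 closed. Genes with net opened regions numbered 849 with links of 10 kb and 186 with 1 kb, and 1949 to 5317 without 1 library; net closed genes numbered 1446, 234, and 2362 to 5754. The net numbers at the 20 named genes were unstable: at −log10 q of at least 5 they moved at 15 and turned at PADI6, to −1, and they moved at 19 with 10 kb links, 20 with 1 kb links, 13 with equal peak numbers and 8 to 11 without 1 library. The ratio of CBP to WT peak number, 0.984, was 0.931 to 1.04 without 1 library, an alternative added after seeing the data.

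At 60 h the CBP minus WT difference was 13.7 points for opened and −9.64 for closed regions. With all 8 lists cut to 82696 peaks it was 17.4 and −22.1, and at −log10 q of at least 5 it was 11.3 and −10.3. In both settings the opened and closed regions were called anew, so these values are for other sets of regions. With the 4 lists of 0 h cut to 121757 peaks each, 4.82% of opened and 16.8% of shared regions lay at gene ends. At −log10 q of at least 5, 18.1% of shared regions did, and 55.5% of closed and 43.5% of shared regions lay inside genes.

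Pileup calls were 2041 higher and 4306 lower. They numbered 962 and 2401 after quantile scaling, 2069 and 1829 with background scaling, 881 and 2067 among the 45638 regions with a mean pileup at or above the median, and 645 to 1056 and 1281 to 3212 without 1 library. Lower sarcomere regions numbered 33, and 16 with background scaling and 16 to 28 without 1 library. Lower myogenic regions numbered 15, and 9, 8 and 6 under quantile scaling, background scaling and the higher pileups, and 6 to 12 without 1 library. All 4 counts were 0 with the authors' fold under limma, where 11502 regions had an unadjusted p under 0.05. The list counts under these settings were added after seeing the data, and the causes were not tested. The directions of the 30 named regions held in each of these fits that tested them.

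Same-numbered libraries did not deviate together (correlation −0.025 over 90837 regions), so the numbers were not taken to pair them. With the replicate block, 1857 regions were higher and 4029 lower, 29 of them at sarcomere and 15 at myogenic genes. The planned motif search has no alternatives. With 2 libraries a group, 1 library can decide a count, and a lone library was assumed to vary like the others. Weak regions are limited by depth, which differed by up to 1.46 times.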
